A study of Rattus norvegicus with 8 samples.

Results

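The fatty acid-binding proteins and related lipid carriers on the array were examined in fetal rat testes exposed to mono-(2-ethylhexyl) phthalate (MEHP), the active metabolite of the plasticizer di-(2-ethylhexyl) phthalate. The set comprised 8 genes chosen by name, Fabp1, Fabp3, Fabp4, Fabp5, Fabp7, Cd36, Dbi and Scp2, out of 35581 gene names on the array. They were covered by 10 of the 41012 probes, with 2 probes each for Fabp1 and Dbi and 1 for each of the other genes. All 10 probes matched the same gene by accession in the RefSeq gene table. Of these probes, 5 carried a measurable signal, namely the single probes of Fabp3, Fabp5 and Scp2 and both probes of Dbi.

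Testes of Sprague-Dawley rat fetuses at mid-gestation were explanted and cultured for 72 h with the DMSO vehicle or with MEHP in the same vehicle. There was 1 testis at 1 µM and there were 3 testes at 10 µM, and each was hybridized on 2 Agilent Whole Rat Genome arrays (8 arrays in all) against RNA pooled from 3 vehicle-treated testes. Each array compared 1 whole testis with this pool, so the control testes have no spread of their own here, and both doses were read against the same control RNA. The explants keep all cell types of the organ, so fewer cells of a type and less RNA per cell cannot be told apart.

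Values are log2 ratios of MEHP over vehicle from the deposited spot ratios. By the labels the treated RNA carried Cy3 on every one of the 8 arrays, but by the methods the dyes were swapped between the 2 arrays of a testis. Over 3668 bright probes the red over green ratios of paired arrays correlated at r = -0.518 at 1 µM and at -0.750, -0.498 and -0.821 in testes 1, 2 and 3 at 10 µM. MEHP was therefore taken as Cy3 on the first array of each testis and as Cy5 on the repeat. This direction is likely but not stated by the labels, and the opposite assignment would turn every sign.

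The arrays differed in how much of the treated RNA they detected. The MEHP channel was well above background for between 7.71% and 29.15% of the probes on 6 arrays, but for 0.232% and 1.51% on the 2 arrays of testis 2 at 10 µM. The highest MEHP foreground signal on the first array of testis 2 was 854, against 22481 to 25936 on the other first hybridizations. The vehicle channel was well above background for 9.01% to 31.3% of the probes on all 8 arrays. By the dye assignment taken, fewer probes were above background in Cy3 than in Cy5 on every array but the repeat of testis 2. In testis 1 at 10 µM the shares were 12.2% for MEHP and 20.8% for vehicle on the first array. On its repeat they were 25.8% and 9.36%. The median ratio over the 9996 probes tested at 10 µM was 0.03 at 1 µM and 0.09, -1.14 and -0.20 in testes 1, 2 and 3. Values at 10 µM are therefore given for each testis, and the means also without testis 2.

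Fatty acids are poorly soluble in water and move inside cells bound to small carrier proteins of the FABP family, each of which is abundant in particular tissues. CD36 takes up long-chain fatty acids at the cell surface, DBI (acyl-CoA-binding protein) carries the activated acyl-CoA esters and is also a ligand of the mitochondrial protein TSPO, and SCP2 transfers sterols and other lipids between membranes. In the fetal testis, Leydig cells use cholesterol, delivered to mitochondria with the help of carriers such as StAR, to make androgens.

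Fabp3, the heart-type fatty acid-binding protein, was lower than the vehicle pool in testes 1 and 3 at 10 µM, and in testis 2 its mean of -1.13 was about the -1.14 of the median probe there. The log2 ratio was -2.61 and -1.26 in the 2 hybridizations of testis 1, -2.40 and 0.15 in those of testis 2, and -2.72 and -2.67 in those of testis 3. The 2 arrays of testis 3 differed by 0.05, and those of testis 2 by 2.56, which was more than the difference between any 2 testis means. The testis means were -1.94, -1.13 and -2.70. The mean of the 3 testes was -1.92 ± 0.79 (SD, n = 3), with a 95% confidence interval from -3.03 to -0.82 in limma and an adjusted p of 0.0440. Interval and p rest mostly on a spread shared by all tested probes, not on the SD of the probe itself. The limma standard error was 0.556 for Dbi probe A_44_P141377 (SD 0.48) and 0.559 for Fabp5 (SD 0.91), and 0.558 for Fabp3. The same holds for the intervals of the other members below. Fabp3 was the only member probe past the adjusted threshold, 1 of 5 tested, where 2.22% of all tested probes passed. It entered the test through the vehicle channel, the one in which it was higher, so a filter on low values favoured a fall and the call is given as a description. The adjusted p was 0.0865 with the testis as a random block over the 6 arrays and 0.297 with the slide as a fixed block, both in limma. These 222 probes comprised 185 lower ones (1.85% of those tested) and 37 higher ones (0.37%). With every array centred at its median, 121 passed (1.21%), 63 lower and 58 higher.

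The size of the Fabp3 ratio was limited by the background in the treated channel. At 10 µM the treated channel was well above background on only 2 of 6 arrays, the repeat hybridizations of testes 1 and 3, where the processed signal was 238 and 148. On these 2 arrays the vehicle signal was 572 and 945, which gave 2.40-fold and 6.38-fold lower MEHP signals with both channels measured. The vehicle signal was well above background on all 6 arrays, between 318 and 2119. In testis 2 neither MEHP spot was well above background, so its ratio is only a bound, and in testes 1 and 3 the first of the 2 arrays had no measured MEHP signal either. On these first arrays MEHP was taken as Cy3, the dye with fewer probes above background. The part of the dye in these missing signals was not tested. Without testis 2 the mean was -2.32 (limma, adjusted p = 0.00766), with 16.9% of all tested probes past the threshold. Without testis 1 the mean was -1.91 (limma, adjusted p = 0.288) and without testis 3 it was -1.53 (limma, adjusted p = 0.849), and no probe passed in either case, though 1379 and 498 reached an unadjusted p of 0.05. Centring of the arrays brought the mean to -1.47 (limma, adjusted p = 0.0834), and normexp background correction with loess brought it to -0.38 (limma, adjusted p = 0.289).

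In the testis at 1 µM the Fabp3 ratio was -0.70 on the first array and 0.09 on the repeat. The 2 arrays thus differed in sign, and the mean of -0.31 was smaller than the 0.80 between them. Here both arrays measured the treated channel above background, and 1 of 2 the vehicle channel. The vehicle signal not above background was that of the repeat, where the pool was taken as Cy3.

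**Figure D1:**
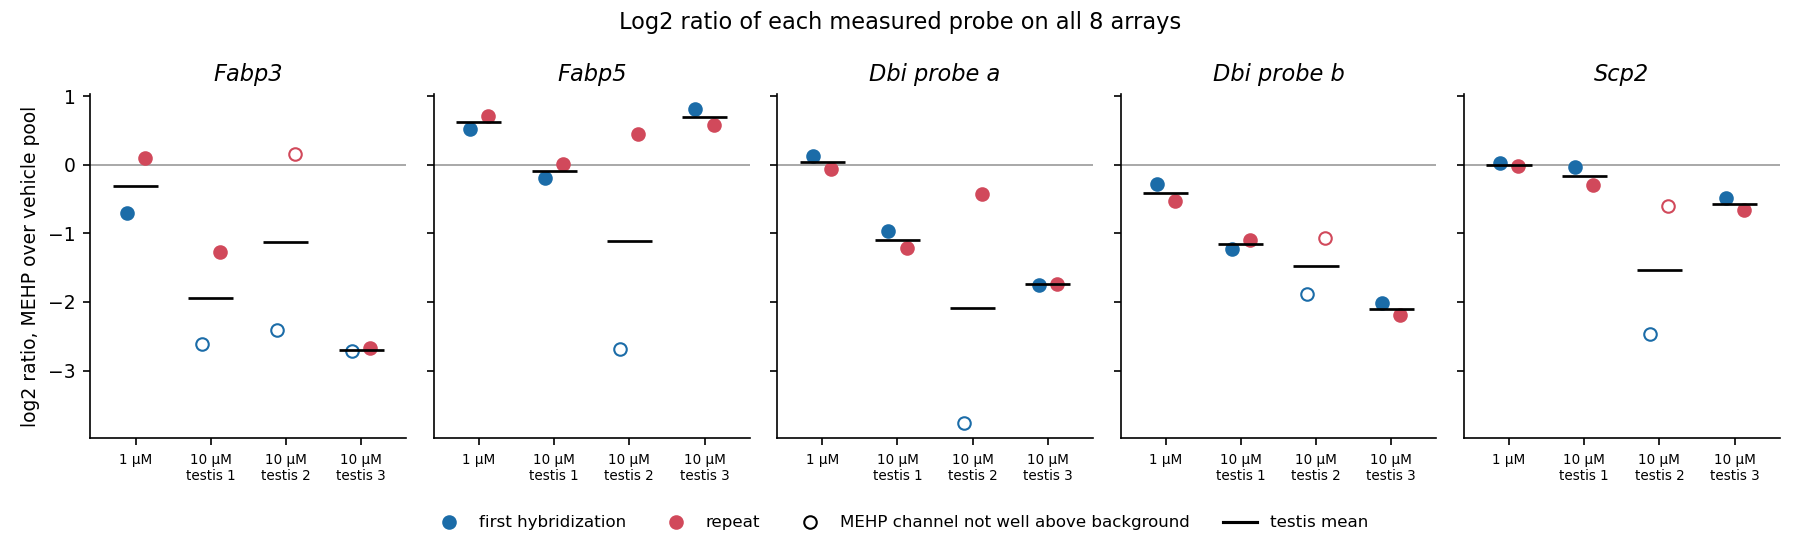
Log2 ratio of MEHP over the vehicle pool (vertical axis) on all 8 arrays for the 5 measured probes, by dose and testis. Blue and red points are the first and the repeat hybridization, open points have a MEHP signal not well above background, and black lines are testis means. The Fabp3, Dbi and Scp2 means lie below 0 in every testis at 10 µM, as do those of 36.4% of all tested probes, and the Fabp5 means go both ways. In every panel the 2 hybridizations lie furthest apart in testis 2, by 0.82 for Dbi probe b and by more for the other probes.

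The promoters of Fabp3 and Dbi are shown because these are the members with the lowest ratios. Each is the stretch of 250 bases before the RefSeq start in assembly GRCr8, 5′ to 3′ on the gene's strand, with motif matches in capitals. The Fabp3 promoter lies at chr5:147935875-147936124 (+ strand) and the Dbi promoter at chr13:33802619-33802868 (- strand).
Fabp3: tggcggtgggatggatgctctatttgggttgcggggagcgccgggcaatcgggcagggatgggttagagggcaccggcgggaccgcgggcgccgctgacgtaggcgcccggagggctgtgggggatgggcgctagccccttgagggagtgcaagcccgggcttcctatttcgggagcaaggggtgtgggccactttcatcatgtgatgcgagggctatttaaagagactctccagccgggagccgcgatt
Dbi: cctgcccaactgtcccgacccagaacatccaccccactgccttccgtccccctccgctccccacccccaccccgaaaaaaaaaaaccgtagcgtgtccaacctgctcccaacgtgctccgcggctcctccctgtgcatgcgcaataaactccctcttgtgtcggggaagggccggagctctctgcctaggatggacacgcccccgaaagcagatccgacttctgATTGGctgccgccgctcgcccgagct
Both stretches were rich in G and C, with 65.6% for Fabp3 and 63.6% for Dbi. Of 5 motifs searched on both strands, the Dbi promoter held 1 match, a CCAAT box (CCAAT, read ATTGG on the strand printed) starting 26 bases before the start, and the Fabp3 promoter held none. CCAAT was present in 34.0% of the 33469 promoters of this length and in 3 of the 6 listed for the members, those of Dbi, Fabp1 and Fabp7. The other motifs were the nuclear receptor site AGGTCA, found in 14.1% of promoters, its direct repeat AGGTCANAGGTCA with 1 free base, which contains AGGTCA and was found in 0.0508%, the GC box GGGCGG in 30.5% and the TATA box TATAAA in 12.9%. Promoters were listed for 6 of the 8 members, and AGGTCA was matched in those of Fabp1 and Fabp7, the direct repeat in none, GGGCGG in those of Fabp7 and Scp2, and TATAAA in those of Cd36 and Fabp1. A match is a description of these letters, and no match says only that they are not in this window.

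Fabp5, the epidermal-type fatty acid-binding protein, did not pass the threshold at 10 µM, and its testes went both ways. The log2 ratio was -0.19 and 0.01 in the 2 hybridizations of testis 1, 0.81 and 0.59 in testis 3, and -2.69 and 0.46 in testis 2. Only testis 3 was above 0 in both hybridizations, and the -2.69 came from the 1 array on which the Fabp5 MEHP signal was not well above background. The mean of the 3 testes was -0.17 ± 0.91 (SD, n = 3) with a 95% confidence interval from -1.27 to 0.94 (limma, adjusted p = 0.917). It was 0.31 without testis 2 (limma, adjusted p = 0.572) and 0.29 with centred arrays (limma, adjusted p = 0.675), so its direction depends on both choices.

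At 1 µM Fabp5 had the highest ratio of the 5 measured probes, 0.53 on the first array and 0.71 on the repeat, with both channels well above background on both arrays. The signals were 20936 against 14515 in the vehicle channel on the first array and 14459 against 8828 on the repeat, or 1.44-fold and 1.64-fold. The limit of 1.5-fold in both hybridizations was thus missed on 1 array. None of the 5 member probes passed that limit at 1 µM, while 7.01% of the 13174 probes counted did, 4.05% higher and 2.96% lower. With 1 testis at this dose there was no test.

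Dbi was lower in all 3 testes at 10 µM by both of its probes, in 6 of 6 hybridizations each. Below 0 in all 3 testes were 36.4% of all tested probes. For probe A_43_P14621, called probe a here, the log2 ratio was -0.97 and -1.22 in testis 1, -3.76 and -0.43 in testis 2, and -1.75 and -1.73 in testis 3. The mean was -1.64 ± 0.51 (SD, n = 3), a 3.12-fold lower level, with a 95% confidence interval from -2.74 to -0.54. For probe A_44_P141377, called probe b, the ratio was -1.22 and -1.09 in testis 1, -1.89 and -1.07 in testis 2, and -2.02 and -2.19 in testis 3. The median of all tested probes was itself -1.70 on the first array of testis 2 and -0.67 on its repeat. Probe a lay below this median on the first array and above it on the repeat, and probe b lay below it on both. Probe b had a mean of -1.58 ± 0.48 (SD, n = 3), a 2.99-fold lower level, with a 95% confidence interval from -2.68 to -0.48. The means of the 2 probes differed by less than the SD between testes. In limma both missed the adjusted threshold, with an adjusted p of 0.0848 for probe a and 0.0971 for probe b. Both reached an unadjusted p of 0.01, as did Fabp3, where 7.6% of all tested probes did so and 6.94% did so as lower ones.

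Unlike Fabp3, Dbi was measured above background in both channels on every array of testes 1 and 3. In testis 1 the MEHP signal of probe a was 7588 and 6180 against 14834 and 14377 in the vehicle channel, and in testis 3 it was 3304 and 5802 against 11093 and 19265. In testis 2 the treated channel was measured above background on 1 of 2 arrays by probe a and on neither by probe b. Without testis 2 both probes passed the threshold, at -1.42 for probe a (limma, adjusted p = 0.0232) and -1.63 for probe b (limma, adjusted p = 0.0178), so that 3 of the 5 member probes, from 2 genes, passed where 16.9% of all tested probes did. Without testis 1 or testis 3 neither did, with adjusted p values between 0.283 and 0.849 in limma. Centred arrays gave means of -1.19 and -1.13, and normexp with loess gave -0.88 and -0.77. None of these passed, with limma adjusted p values between 0.0758 and 0.307.

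In the testis at 1 µM the 2 Dbi probes stayed closer to the vehicle pool. Probe a gave 0.13 and -0.05 in the 2 hybridizations, and probe b gave -0.28 and -0.52. Probe a was thus on both sides of 0, and probe b was below 0 on both arrays at 1.22-fold and 1.44-fold. All 4 values lay above every value of the same probe in testes 1 and 3 at 10 µM.

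**Figure D2:**
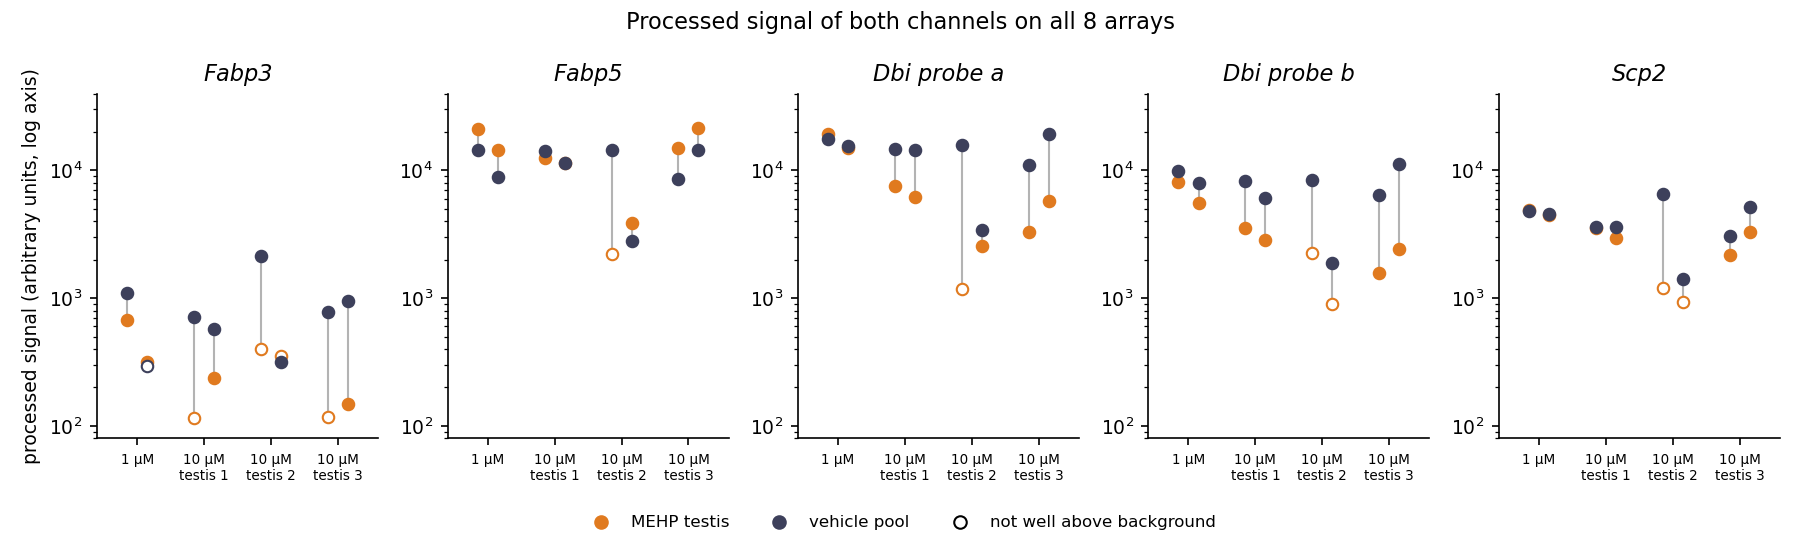
Processed signal of the treated testis (orange) and of the vehicle pool (dark) on a log axis in arbitrary units, for the 5 measured probes on all 8 arrays, with the first hybridization left and the repeat right in each group. Grey lines join the channels of an array, and open points were not well above background. The 2 Dbi probes show both channels above background in testes 1 and 3, whereas most Fabp3 signals of treated testes at 10 µM are open.

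Scp2, the sterol carrier protein, stood between these. Its log2 ratio at 10 µM was -0.03 and -0.29 in testis 1, -2.46 and -0.59 in testis 2, and -0.49 and -0.65 in testis 3, so all 6 hybridizations were below 0. In testis 2 neither MEHP signal was well above background, and the -0.59 of its repeat was above the -0.67 of the median probe there. The mean was -0.75 ± 0.70 (SD, n = 3) with a 95% confidence interval from -1.86 to 0.35 (limma, adjusted p = 0.498). Without testis 2 it was -0.36 (limma, adjusted p = 0.474), and with centred arrays it was -0.30 (limma, adjusted p = 0.634). At 1 µM the ratio was 0.03 and -0.02, the closest to 0 of the 5 measured probes, with both channels well above background on both arrays. At 10 µM a fall of Scp2 was not detected beyond the spread between testes, and with 1 testis at 1 µM there was no test. In the Scp2 promoter, at chr5:128110016-128110265 (- strand), the GC box was matched at 102 and 83 bases before the start.

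Among all probes tested at 10 µM, the members that were measured lay mostly on the lower side. The median of the 5 member probes was -1.58, and the median of all 9996 tested probes was -0.42. A lower mean than that of Fabp3, whose MEHP signal was measured on 2 of 6 arrays, was found for 1.54% of the tested probes, and the corresponding shares were 4.10% for Dbi probe a, 4.99% for Dbi probe b, 31.7% for Scp2 and 64.0% for Fabp5. Below 0 in all 3 testes were 4 of the 5 member probes, against 36.4% of all tested probes. The same 4 were below 0 in both testes 1 and 3, against 38.1%. A pair of these 4 probes belongs to 1 gene, so the count covers 3 genes. Fabp3 entered the test through its vehicle channel, and the median of all tested probes in testis 2 was itself -1.14. The members were chosen with earlier results of these data known, so these medians, shares and counts are a description only.

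**Figure D3:**
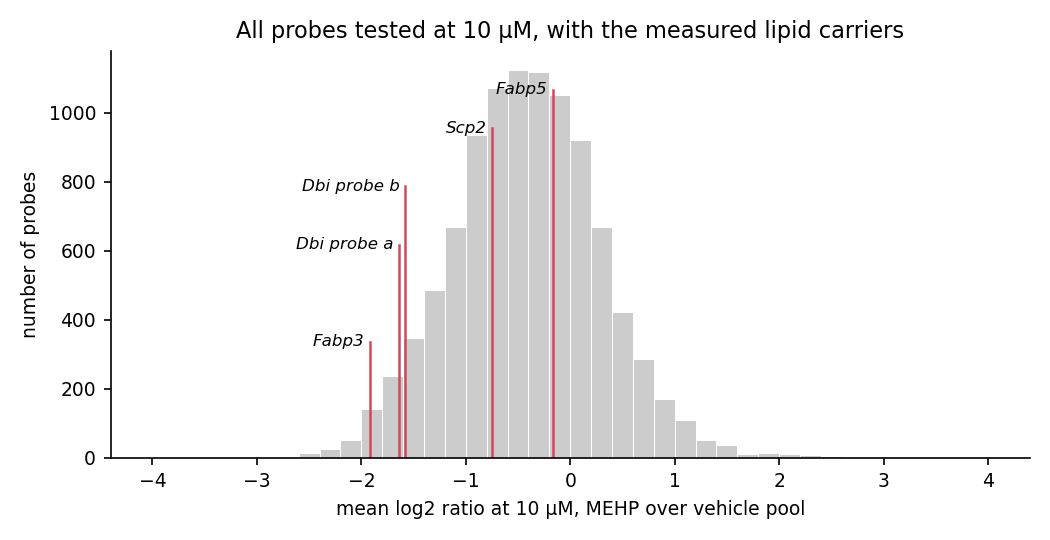
Number of probes (vertical axis) by mean log2 ratio of the 3 testes at 10 µM over the vehicle pool (horizontal axis), for the 9996 tested probes. Red lines mark the 5 measured member probes, whose heights have no meaning. Fabp3 and the 2 Dbi probes lie in the lower tail between -1.92 and -1.58, and Scp2 and Fabp5 lie in the bulk.

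The doses were compared in a fit of the 3 testes at 10 µM against the single testis at 1 µM, which was assumed to vary like the others. The difference, 10 µM minus 1 µM, was -1.62 for Fabp3, -1.68 and -1.18 for Dbi probes a and b, -0.76 for Scp2 and -0.79 for Fabp5. None passed the threshold (limma, adjusted p = 0.9995 for each, unadjusted p from 0.136 to 0.500), and of the 9861 probes tested 0% passed it and 0.243% had an unadjusted p under 0.05. The 95% confidence intervals were wide, from -3.83 to 0.60 for Fabp3 and from -3.89 to 0.53 for Dbi probe a. In 4 of the 5 member probes, all but Fabp5, the 3 testes at 10 µM lay below the testis at 1 µM, as they did for 38.8% of all probes. Testis 3 and the testis at 1 µM were on the same slide, and testes 1 and 2 on the other. Within that slide testis 3 minus the testis at 1 µM was -2.39 for Fabp3, -1.78 and -1.70 for Dbi, -0.58 for Scp2 and 0.08 for Fabp5.

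**Figure D4:**
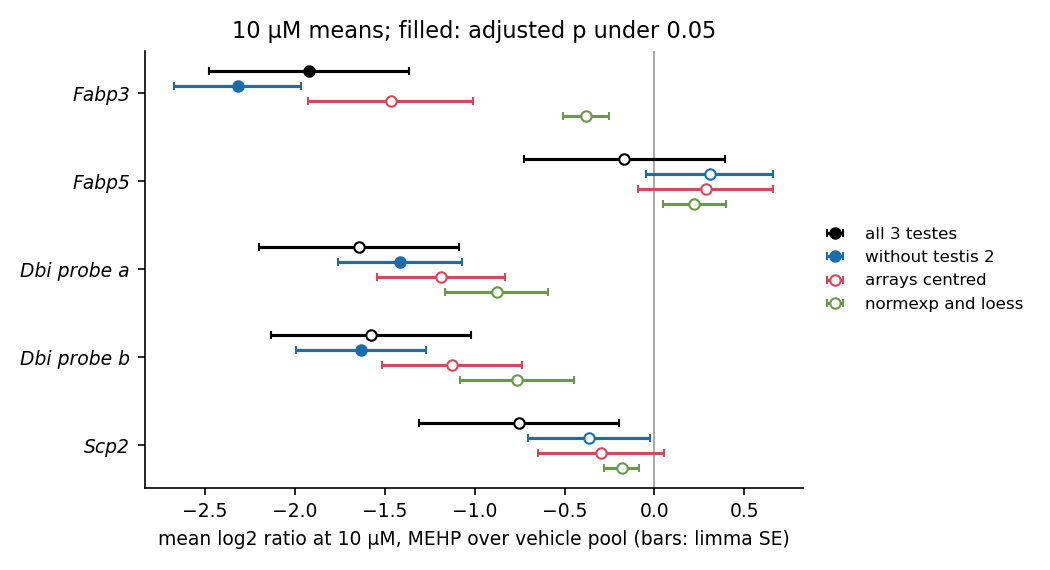
Mean log2 ratio at 10 µM over the vehicle pool (horizontal axis, bars are limma standard errors) for the 5 measured probes, with all 3 testes, without testis 2, with arrays centred at their medians and with normexp background correction and loess. Filled points have an adjusted p under 0.05. Fabp3 passes with all 3 testes and without testis 2, the Dbi probes without testis 2, and the Fabp5 mean changes sign.

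The remaining members were not measured in these testes. Fabp1 (liver-type), Fabp4 (adipocyte-type) and Fabp7 (brain-type) were not well above background in either channel of any array, by any of their 4 probes. Their highest signal was 495, for Fabp4 in the MEHP channel of the first array of testis 2, where the ratio was 1.53 without either channel being measured. The second Fabp1 probe gave 1.45 and 0.60 at 1 µM and 1.23 and -0.91 in testis 3, all between signals at the background, so no fold is given. The other Fabp1 probe and the Fabp7 probe stayed within -0.12 and 0 on all 8 arrays. Cd36, the uptake receptor, was printed as 10 spots per array, and 1 of its 80 spots was well above background in the vehicle channel and none in the MEHP channel. Its ratio ranged from -0.31 to 0.04. No direction can be given for these genes, and a signal below the limit of the array does not show that the RNA was absent.

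Markers of other cell types were read beside these members. All 5 hepatocyte markers, albumin (Alb) among them, were never above background in the vehicle channel, as was the case for Fabp1. Of the adipocyte markers, 3 of 4 were never above it, including adiponectin (Adipoq), as were 5 of 6 endothelial and 4 of 6 macrophage markers. In the vehicle channel the Sertoli cell genes Amh, Sox9 and Inhbb and the Leydig cell gene Insl3 were above background on all 8 arrays. The peritubular and smooth muscle marker Des was so on all 8 too, and the endothelial marker Kdr on 7. Of the 4 peritubular and smooth muscle markers on the array, 1 was never above background in that channel. Never above it there were 2 of 7 Leydig cell markers, Lhcgr and Nr5a1, and 3 of the 5 germ cell markers on the array. All 8 Sertoli cell markers were above it on some array. Wt1 among them was so on 2 arrays, as was the Leydig cell gene Cyp11a1. Among Leydig cell markers 4 of 7 were tested at 10 µM, and 1, Cyp17a1, was past the threshold at -1.96 (limma, adjusted p = 0.0407), where 2.22% of all tested probes passed. Over the 8 arrays Cyp17a1 was above background in the vehicle channel of 6 and in the MEHP channel of 3, so this call too is given as a description. At an unadjusted p under 0.05 in limma there were 3 of the 4 tested Leydig cell markers, Cyp17a1, Insl3 and Hsd3b1, against 17.7% of all tested probes. At 1 µM, of 5 Leydig cell markers counted, 2 were past 1.5-fold lower (Insl3 and Cyp17a1) and 2 higher (Star and Cyp11a1). Of all counted probes 2.96% were lower and 4.05% higher. Cyp11a1 was above background in the MEHP channel of 1 of the 8 arrays. At 10 µM the means of the 4 tested Leydig cell markers, Cyp17a1, Insl3, Hsd3b1 and Star, ranged from -1.96 to -0.56. Their medians were -0.93, -1.46 and -1.97 in testes 1, 2 and 3. Among Sertoli cell markers 6 of 8 were tested and 0 passed in limma (3 of 6 at an unadjusted p under 0.05, namely Amh, Inhbb and Dhh, against the same 17.7%), with a median of -0.87. Dhh was above background in the vehicle channel of 6 of the 8 arrays and in the MEHP channel of 1. The part of a change in these cell types in the Fabp3 and Dbi ratios was not tested.

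The other genes of lipid binding, uptake and carriage were read from 5 lists with 69 genes, of which 59 were on the array and 28 were tested at 10 µM. None passed the adjusted threshold in either direction in limma, and 1, Npc2, a lysosomal sterol carrier, had an unadjusted p under 0.05, where 17.7% of all tested probes had one. The medians of the 5 lists at 10 µM lay between -0.46 and -0.30, close to the -0.42 of all tested probes. Npc2 had ratios of -0.67, -1.69 and -1.81 in testes 1, 2 and 3, a mean of -1.39 (limma, adjusted p = 0.152). Without testis 2, 2 of the tested list genes passed where 16.9% of all tested probes did, namely Npc2 and Stard3, the latter named LOC363675 on the array and higher in testes 1 and 3, at 1.13 and 1.26, with -1.18 in testis 2.

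Other intracellular lipid-binding proteins of the FABP family were tested for 4 of 10 genes, with none past the threshold. The retinoic acid carrier Crabp2 gave -0.25, -2.02 and -0.42 in testes 1, 2 and 3, the lowest value being that of testis 2. Fatty acid uptake and activation genes were tested for 6 of 13. Acsl5, an acyl-CoA synthetase, had the lowest mean among them at -1.01 (limma, adjusted p = 0.333).

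Acyl-CoA, sterol and phospholipid carriers were tested for 9 of 20 genes. At 1 µM, 3 genes of this list and none of the other 4 lists exceeded 1.5-fold in both hybridizations, each higher, of 32 list genes counted, where 4.05% of all counted probes were higher. Star gave 1.56 and 2.10, Acbd3, an acyl-CoA-binding domain protein of the Golgi, gave 0.65 and 1.00, and Pltp, the phospholipid transfer protein, gave 0.96 and 0.59. With centred arrays the count was also 3, with Acsl1 of the uptake list in place of Pltp. Star was not higher in all testes at 10 µM, with 1.27, -1.08 and -1.86 in testes 1, 2 and 3. Tspo, the mitochondrial partner of DBI, listed as Bzrp, was above background in the vehicle channel of 3 of the 8 arrays and in the MEHP channel of 1, and was not tested at 10 µM.

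Of the peroxisome proliferator-activated receptors, which regulate several FABP genes and Cd36, Ppara, Ppard and Pparg were not above background in either channel of any array. Among these receptors and their targets 7 of 14 genes were tested, with none past the threshold and a median of -0.30. Acadm, a mitochondrial acyl-CoA dehydrogenase, gave -0.66, -1.01 and -0.77 in testes 1, 2 and 3. Lipid droplet and lipolysis genes were tested for 2 of 12, Dgat1 and Dgat2, which make triglyceride, with means of -0.71 and -0.05. The perilipin Plin1 and the lipases Lipe, Pnpla2 and Mgll were not above background in either channel.

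The probes most like Fabp3 across the 8 arrays, among 2810 candidates, were Rpsa at r = 0.936, LOC311078 at 0.906, Sec61g at 0.90, Polr2j_predicted at 0.876 and Pyp_mapped at 0.870. An r above 0.9 was found for 0.0712% of the candidates. The 8 arrays come from 4 testes and share the vehicle pool, so these values describe likeness on these arrays only. Both channels of Fabp3 were above background on 3 of the 8 arrays, so most of its ratios used here hold a signal not measured. No other member was among these 5 probes.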

How the data were processed

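The authors scanned the arrays with Agilent Feature Extraction (9.1 per the labels) and deposited for each spot the log10 ratio of red over green after background subtraction and dye normalization, its error, and the processed, foreground and background intensity of each dye. Other deposited values were flags for outlier spots, saturation and signals well above background. The authors' lists of selected genes, with fold scores and p-values, were not used.

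Log10 ratios were turned to log2 of MEHP over vehicle, outlier spots left out, spots of a probe averaged and then the 2 hybridizations of a testis, which count as 1 replicate. A testis with 1 hybridization left was kept. Probes were tested at 10 µM if either channel was well above background on 3 or more of 6 arrays, and counted at 1 µM if on 1 of 2. The 3 testes at 10 µM were tested against 0, two-sided, in limma 3.58.1 (lmFit, eBayes; R 4.3.3), with p-values adjusted by Benjamini and Hochberg over every probe tested, at 0.05. The spread among control testes does not enter. Confidence intervals use the standard error of limma, in which the spread of a probe is drawn towards that of all tested probes. At 1 µM a change was 1.5-fold in the same direction on both arrays. Arrays carry no counts, and their number limits the precision. All member probes were named, with up to 3 genes per list past the threshold at 10 µM, up to 2 at 1 µM and the 5 probes most like Fabp3. Pltp and other list genes outside this rule were named after their values were seen, and the members and lists were chosen with earlier results of these data known. Gene names came from the array, and 10735 probes were matched by accession to RefSeq names of GRCr8. Further software was data.table (version 1.17.8), matplotlib 3.10.9 and Python 3.11.15. The fit functions were run on simulated data with known changes. These held independent noise around 0 and no shift of whole arrays like that of testis 2, so they do not test the calls made here. Alternatives changed the background correction, normalization, filter, threshold, hybridization, dye direction, testes used, block and weighting.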

Additional observations from a re-analysis of the deposited data

How the results depend on the processing

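Fabp3 was the only member probe past the adjusted threshold at 10 µM, having entered the test through its vehicle channel. Keeping outlier spots left its value as it was, since it had none. The number of member probes past it was 0, with 0 of all tested probes, under normexp background correction with loess, loess without background correction, the first hybridization alone, MEHP on Cy3 on every array, no filter on dim probes, a fit of 6 arrays in which each testis was a random block (consensus correlation 0.347) and the slide as a fixed block, which leaves 1 degree of freedom. With every array centred at its median it was 0, with 121 of all probes, with the repeat hybridization alone 0 of 228, and with the filter on all 6 arrays 0 of 18. At an unadjusted p of 0.01 it was 3, with 760 of all probes. The error-weighted mean over arrays, whose error comes from within the arrays, gave 4 (Fabp3, both Dbi probes and Scp2) with 5768 of all probes. Leaving out each testis gave 0 to 3 member probes and 0 to 1689 of all probes, the higher values without testis 2. The counts without a testis were 0 to 2 for the lipid lists and 0 to 6 for cell type markers. At an unadjusted p of 0.05 these were 1 and 7, and with centring 0 marker genes passed.

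Of the 15 alternatives, 4 could not move the 10 µM mean of a member. In the other 11 it stayed below 0 for Fabp3 (from -2.58 to -0.34), for Dbi probe a A_43_P14621 (from -2.16 to -0.52), for Dbi probe b A_44_P141377 (from -1.79 to -0.13) and for Scp2 (from -1.05 to -0.16). The Fabp5 mean turned positive with normexp and loess (0.22), loess without background correction (0.20), centring (0.29), the repeat hybridization alone (0.35), the slide as a fixed block (0.0495) and the error-weighted mean (0.18). Leaving out each testis gave -0.60 to 0.31 for Fabp5, the positive value without testis 2. Its dose difference also turned, to 0.0804, with the slide as a fixed block. No member probe passed 1.5-fold in both hybridizations at 1 µM under any alternative run. The lipid list genes past that limit were 0 with normexp and loess, and 1 each with loess without background correction, MEHP on Cy3 on every array and a 2-fold limit. The cause of these changes was not tested. The slide as a random block could not be fitted with 3 testes on 2 slides. No paired analysis was possible with 1 testis at 1 µM, and the labels do not pair the testes of the 2 doses. Signals near background limit Fabp3 at 10 µM and leave 5 of the 10 member probes unmeasured.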
